A study of Mus musculus with 6 samples.

Results

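Mature B cells were picked out of 6 single-cell RNA-seq libraries of mouse calvarial bone marrow by their transcripts. A cell was kept when it held at least 2 UMIs (unique molecular identifiers, each standing for 1 captured transcript) of Cd79a, the signalling chain of the B-cell receptor, and at least 1 UMI of Ms4a1, the gene of the surface protein CD20. It also had to lack UMIs of Vpreb1 and Igll1, the surrogate light chains of B-cell precursors, and to hold fewer than 30 UMIs of Jchain, which joins secreted antibody in plasma cells. The members were thus selected on the measured UMIs of these 5 genes, whose levels are description only. This gave 519 cells, 1.38% of the 37576 cells that passed quality control (500 to 5000 genes, more than 500 UMIs and less than 25% mitochondrial UMIs).

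The study compared cranial bone marrow at 3 ages and 2 positions. CBMA was the sagittal suture with the parietal marrow beside it, and CBMD was parietal bone away from the suture. Mice of 02, 12 and 18 months gave CBMA_02m, CBMA_12m, CBMA_18m, CBMD_02m, CBMD_12m and CBMD_18m, with 1 library of pooled animals each. All were described as untreated wild-type male C57BL/6 mice, and dura and periosteum were taken off before the tissue was digested and red blood cells and dead cells were removed. There are therefore no replicate libraries and no test was made: levels are counts per 1000000 UMIs (CPM), summed over the B cells of a library, and every interval is a 95% interval that covers counting error only. A gene was called higher or lower when its mean level predicted at least 10 UMIs in the smaller library and its ratio passed 1.5-fold. Both positions were cut from calvaria of the same age groups and may share animals. A difference seen in both positions may therefore not come from independent animals.

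B cells leave the marrow as immature cells, complete their maturation mainly in the spleen, and return through the blood to the marrow. A naive follicular B cell carries IgM and IgD made from 1 heavy-chain transcript by alternative splicing, whereas a cell that has switched its isotype has lost both and makes IgG, IgA or IgE. B cells also present antigen: peptides cut in endosomes are loaded on MHC class II molecules, which are dimers of an alpha and a beta chain, and shown to helper T cells. The invariant chain Cd74 fills the class II groove until H2-DM exchanges it for peptide, and H2-O restrains H2-DM.

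The label held against precursors and plasma cells, the classes it was compared with. Summed over all libraries, Cd74 stood at 8898 CPM in the selected cells, against 1752 CPM in the 34 precursor cells and 2521 CPM in the 229 plasma cells of the same data. H2-Aa, the class II alpha chain of I-A, stood at 2731, 551 and 53.5 CPM in these classes, and Ighd, the IgD constant region, at 495, 135 and 4.49 CPM. Rag1, which recombines the receptor genes in precursors, was at 2.02 CPM in mature B cells and 411 CPM in precursors, and Sdc1, the plasma-cell syndecan, at 7.41 and 190 CPM in mature B and plasma cells. Ms4a1, used for the selection, lay between 839 and 1053 CPM in the 6 libraries. At the edges of the selection, 29 cells held exactly 2 Cd79a UMIs and 39 otherwise matching cells held 1, 81 cells held 1 Ms4a1 UMI and 108 held none, and the largest Jchain count inside was 27, with 79 cells at 30 or more. Only 5 cells were removed by Vpreb1 or Igll1. Cd93, a gene of immature B cells, was not part of the selection, so such cells can be among the members. Without cells with Rag1, Rag2, Dntt or Cd93 the members were 4.41% of the quality-controlled cells of CBMD_12m, against 5.04% with them.

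Several features of the libraries touch the results. Among the B cells, Xist, the transcript of the inactive X chromosome of females, was found in 15 of 32 cells of CBMA_12m and 130 of 225 cells of CBMD_12m but in 1 cell of the other 4 libraries together, which goes against the stated sex of the 12m animals, and sex cannot be told apart from age in comparisons with 12m. Cells with at least 3 UMIs of cell-cycle genes were few (36 of 519) but deep, and held 29.0% of the B-cell UMIs of CBMA_02m and 48.3% of those of CBMD_02m, against 2.17% to 16.5% in the older libraries. One cell of CBMA_12m held 28786 immunoglobulin UMIs among its 48539 UMIs. Cells with transcripts of another lineage numbered 84, of which 17 and 34 were in the 12m libraries. They held at least 2 UMIs of Cd3e, Cd3d, Cd3g, Csf1r, C1qa, Mpo and Pf4 together, or at least 20 of S100a8 and S100a9 together. The summed neutrophil list was 5793, 8639 and 11467 CPM in B cells of CBMA at 02, 12 and 18 months and 4913, 13935 and 9164 CPM in CBMD. The share of these contributions in any result below was not tested beyond the values without such cells. Across libraries, 7 B-cell barcodes belonged to barcode sequences seen in more than 1 library.

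Mature B cells took up a larger share of the older marrow in both positions. There were 45, 32 and 71 of them in CBMA at 02, 12 and 18 months, which is 0.524% (0.383 to 0.701), 1.18% (0.807 to 1.66) and 0.982% (0.768 to 1.24) of quality-controlled cells. In CBMD there were 26, 225 and 120, or 0.327% (0.214 to 0.478), 5.04% (4.42 to 5.72) and 1.81% (1.5 to 2.16). The 18m share was 1.87 times the 02m share in CBMA (1.27 to 2.78) and 5.54 times in CBMD (3.6 to 8.83), and the 12m share 2.24 and 15.4 times. Without cells holding transcripts of other lineages the CBMA_12m share was 0.552%, near the 02m share. Both ratios of a position use the same 02m library. In CBMD the 18m share was 0.359 times that of 12m (0.285 to 0.450), while in CBMA the interval of this ratio included 1 (0.542 to 1.31). In droplet data a larger share can come from more B cells or from fewer cells of other types, and these cannot be told apart. When every cell was thinned to 1000 UMIs before selection, the shares were 0.223%, 0.576% and 0.251% for the 3 ages of CBMA, so that the 18m share stood near the 02m share, and 0.128%, 2.23% and 0.549% for CBMD. Among cells with at least 2 Cd79a UMIs, which include plasma cells, the mature share was 68.2%, 59.3% and 51.8% in CBMA, against 68.4%, 64.8% and 55.3% in CBMD, lowest at 18 months in both. The B cells held 133515 to 1228667 UMIs per library, with a median of 4325.5 to 5148 UMIs per cell.

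**Figure D1:**
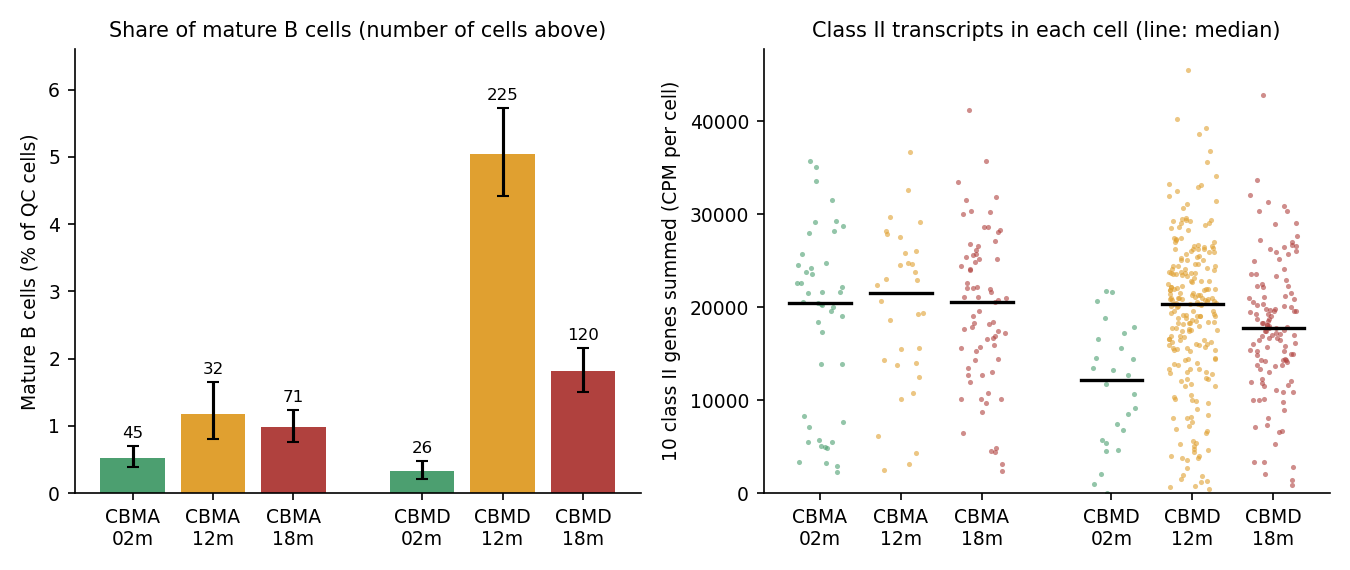
Left, mature B cells as percent of quality-controlled cells in each library, with exact binomial 95% intervals and the number of cells above each bar; CBMD_12m stands highest at 5.04%. Right, the summed CPM of 10 class II genes in each cell (points) with the library median (line), lowest in CBMD_02m at 12215 CPM.

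Class II transcripts were lower in CBMD_02m than in the other 5 libraries. The 10 genes of the class II molecules, including Cd74 and the H2-DM and H2-O chains, summed to 14768, 16362 and 17778 CPM in CBMA at 02, 12 and 18 months and to 11706, 18140 and 16698 CPM in CBMD. The 18m sum was thus 1.43 times the 02m sum in CBMD (1.35 to 1.5) and 1.20 times in CBMA (1.16 to 1.25), and the 12m sum 1.55 times (1.47 to 1.63) and 1.11 times (1.06 to 1.16). In CBMA neither ratio reached 1.5-fold. At 18 against 02 months in CBMD, 5 of 8 measured members were higher and none lower, where 16% of all measured genes were higher and 24.7% lower, with a median log2 ratio of 0.72 for the list and -0.11 for all genes. At 12 against 02 months in CBMD, 7 of 9 were higher and none lower, where 20.3% and 20.1% of all genes were, with medians of 0.85 and 0.00. In CBMA, 1 of 10 was higher and 1 lower at 18 months (26% and 17.7% of all genes), and none was higher and 1 lower at 12 months (23% and 21.7%). The sums in neutrophils, which do not express class II, were 120 to 849 CPM, and in T cells 119 to 371 CPM.

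The chains of I-A and I-E, the mouse class II molecules, carried most of the difference in CBMD. H2-Aa was at 2223, 2820 and 2788 CPM in CBMA, compared with 1251, 2891 and 2839 CPM in CBMD. In CBMD the ratio to 02m was 2.27 at 18 months (1.94 to 2.67) and 2.31 at 12 months (1.98 to 2.72), and in CBMA 1.25 (1.13 to 1.39) and 1.27 (1.13 to 1.43). The CBMD_02m library is the low one. When each cell was thinned to 1000 UMIs, H2-Aa was found in 71.1%, 77.4% and 91.4% of CBMA cells and in 54.2%, 86.0% and 83.3% of CBMD cells, against at most 5.57% of neutrophils. H2-Ab1, the beta chain of I-A, was at 1537, 1720 and 2232 CPM in CBMA, next to 1086, 2072 and 2138 CPM in CBMD, so that its CBMD ratios were 1.97 at 18 months (1.66 to 2.35) and 1.91 at 12 months (1.61 to 2.27). H2-Eb1, the I-E beta chain, was at 1743, 1783 and 2086 CPM in CBMA, against 1146, 2305 and 1842 CPM in CBMD, with ratios in CBMD of 1.61 (1.36 to 1.91) and 2.01 (1.71 to 2.38). These 3 genes lie together on chromosome 17 of the GRCm38 build, H2-Aa at chr17:34282744-34287823 on the minus strand, H2-Ab1 at chr17:34257689-34269419 and H2-Eb1 at chr17:34305867-34316674 on the plus strand. The 200 bases before the annotated starts of H2-Aa (chr17:34287824-34288023, minus strand) and H2-Eb1 (chr17:34305667-34305866, plus strand) are shown, from RefSeq on GRCm38.p6, because the Y box that class II promoters share was found in both. Capitals mark the Y box CTGATTGG, which begins 51 bases before the start in H2-Aa and 62 in H2-Eb1.
H2-Aa: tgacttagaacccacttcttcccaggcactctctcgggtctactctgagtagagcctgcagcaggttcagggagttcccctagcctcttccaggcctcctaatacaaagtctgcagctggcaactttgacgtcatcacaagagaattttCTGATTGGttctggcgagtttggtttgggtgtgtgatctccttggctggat
H2-Eb1: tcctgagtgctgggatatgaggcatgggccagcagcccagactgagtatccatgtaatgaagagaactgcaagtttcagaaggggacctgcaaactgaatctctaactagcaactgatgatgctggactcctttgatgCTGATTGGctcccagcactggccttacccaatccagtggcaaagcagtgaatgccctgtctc
This motif, searched on both strands (CCAATCAG on the other), was found in 4.10% of all promoter windows of 300 bases and in 4 of the 8 class II genes that have such a window, which were H2-Aa, H2-Eb1, H2-Eb2 and H2-Oa. A match is a description of the letters and not of a bound site.

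The peptide-loading genes moved less uniformly. Cd74 was at 7965, 8842 and 9380 CPM in CBMA, compared with 7347, 9310 and 8536 CPM in CBMD, and none of its ratios reached 1.5-fold (1.18 and 1.11 in CBMA, next to 1.16 and 1.27 in CBMD, for 18 and 12 months). H2-Eb2, another I-E beta chain gene, was low, at 46.3, 63.0 and 85.9 CPM in CBMA, against 22.5, 83.8 and 80.8 CPM in CBMD. H2-DMb1, a beta chain of H2-DM, was at 75.8, 77.5 and 100 CPM in CBMA, compared with 37.4, 144 and 98.3 CPM in CBMD, 3.85 times higher at 12 than at 02 months there. H2-DMb2 was at 307, 281 and 255 CPM in CBMA, next to 165, 274 and 279 CPM in CBMD, and H2-DMa at 255 to 354 CPM in all 6 libraries. H2-Oa, the alpha chain of the H2-DM inhibitor, went opposite ways. It was at 240, 116 and 148 CPM in CBMA, with ratios of 0.617 at 18 months (0.423 to 0.900) and 0.485 at 12 months (0.288 to 0.793) and was called lower at both ages. In CBMD it was at 97.4, 176 and 183 CPM, with ratios of 1.88 (1.06 to 3.62) and 1.81 (1.03 to 3.45), and was called higher at both. The 02m libraries thus held its highest and its lowest level.

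**Figure D2:**
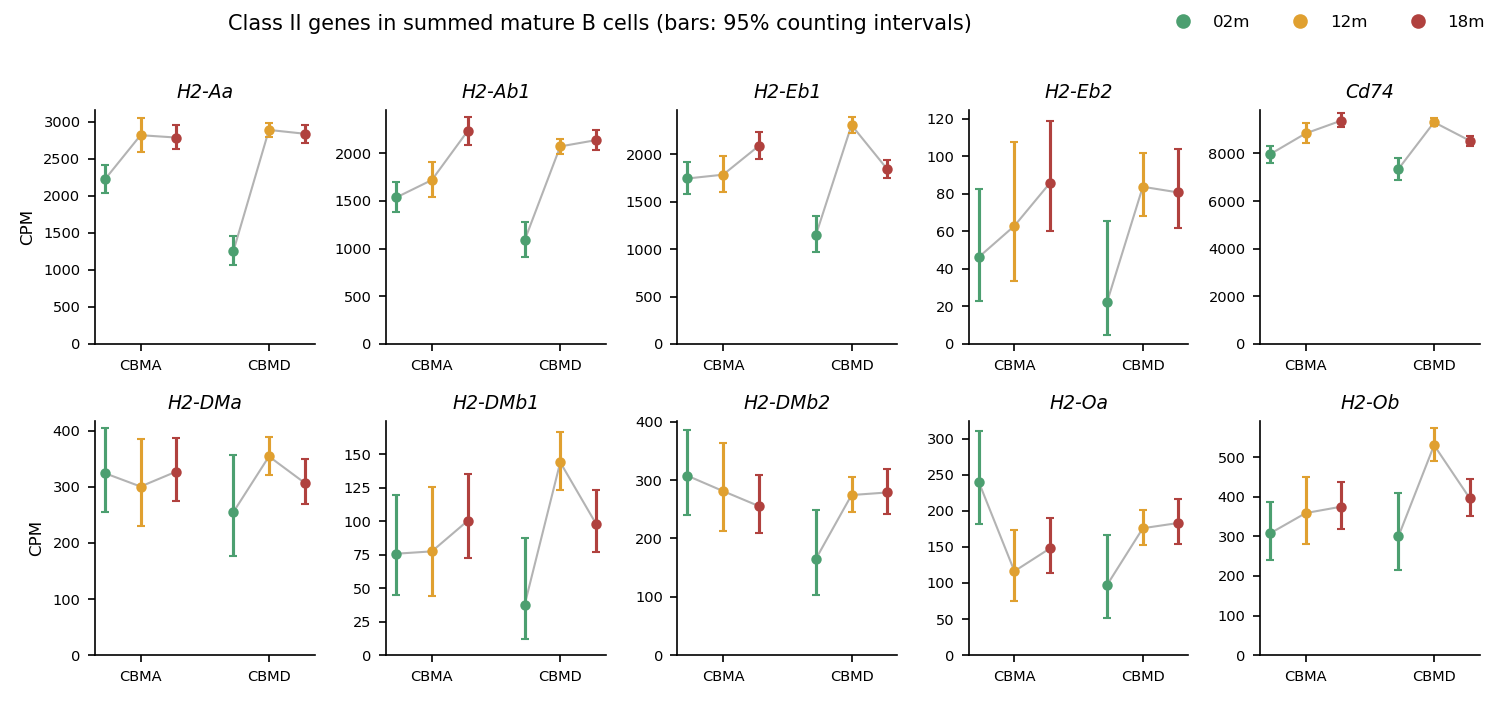
CPM of each of the 10 class II genes in the summed B cells of the 6 libraries, in order 02m, 12m and 18m for each position, with exact Poisson 95% intervals. H2-Aa, H2-Ab1 and H2-Eb1 are lowest in CBMD_02m, and H2-Oa is highest in CBMA_02m.

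Class II transcripts were lower in the cycling cells of 5 libraries, the exception being the single cycling cell of CBMA_12m. The summed level was 5772 CPM in cycling and 18434 CPM in other cells of CBMA_02m, 8712 and 19459 CPM in CBMA_18m, and 10056 and 13246 CPM in CBMD_02m. Without the cycling cells the CBMA ratios of the sum were 1.06 at 18 months and 0.872 at 12 months, so that the direction at 12 months turned. The CBMD ratio at 12 months was then 1.43. The 31 other cells of CBMA_12m include the cell with 28786 immunoglobulin UMIs, which held 48539 UMIs at a class II level of 3152 CPM. The ratio without both this cell and the cycling cells was not taken, so the turn cannot be put down to cycling cells alone. In CBMD 4 of 8 measured members were still higher at each age without cycling cells. Over all genes, 159 were then called higher and 207 lower in CBMD at 18 months, and 167 and 109 at 12 months. The share of all measured genes was not taken under this setting, so these list counts have no background beside them. H2-Aa kept ratios of 2.24 and 2.16 to CBMD_02m without cycling cells, while in CBMA its ratios were 1.08 and 0.941. In CBMD_12m the summed level was 17865 CPM in the 130 cells with Xist and 17724 CPM in the 53 cells with a Y-linked transcript and no Xist. In CBMA_12m these were 13341 CPM in 15 cells and 23825 CPM in 7 cells. The 15 cells include the same cell at 3152 CPM, with 48539 of their 124128 UMIs, so this gap rests in part on 1 cell.

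Genes that control class II and cut its peptides gave 4 of 6 measured members higher and none lower in CBMD at both ages, beside 16% and 20.3% of all genes higher at 18 and 12 months. In CBMA at 18 months 2 of 7 were higher and 1 lower, which is near the 26% and 17.7% of all genes. The median log2 ratios at 18 months were 0.85 in CBMD and 0.33 in CBMA. Without cycling cells the CBMD counts were 2 of 5 and 1 of 4, with no share over all genes taken under that setting. Ciita, the master activator of class II genes, was at 177, 199 and 255 CPM in CBMA, against 90, 211 and 194 CPM in CBMD. Its CBMD ratios were 2.16 at 18 months (1.20 to 4.27) and 2.35 at 12 months (1.32 to 4.6), and both came down to 1.27 and 1.25 without the cycling cells. March1, a ubiquitin ligase that removes class II from the surface, was at 88.4, 96.9 and 217 CPM in CBMA, compared with 74.9, 133 and 186 CPM in CBMD, and was higher at 18 months in both positions, 2.46 times (1.52 to 4.16) and 2.48 times (1.31 to 5.29). Ctsb, an endosomal protease, was at 75.8, 194 and 150 CPM in CBMA, next to 52.4, 103 and 133 CPM in CBMD. Ifi30, which reduces disulphide bonds of antigens, was at 594, 339 and 258 CPM in CBMA, with a ratio of 0.434 at 18 months (0.335 to 0.562). At 12 months its ratio was 0.571, which turned to 1.10 without cells of other lineages. In CBMD it was at 487, 343 and 376 CPM and did not pass 1.5-fold.

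IgD was found in shares of the cells whose intervals overlapped between ages. Shares with a switched isotype were near those of other cell types once each cell was thinned to 1000 UMIs. At 1000 UMIs per cell, Ighd was found in 37.8%, 41.9% and 42.9% of CBMA cells and in 41.7%, 43.2% and 28.3% of CBMD cells, where CBMD_18m was lowest with an interval of 20.5 to 37.3%. Without thinning the shares were 64.2% to 76.9%. Among neutrophils the share was at most 0.58% and among T cells at most 0.76%, so that Ighd is not background. In CPM, Ighd (chr12:113406604-113416324, minus strand) was at 530, 533 and 422 in CBMA, against 382, 604 and 354 in CBMD. It was called higher only in CBMD at 12 months (ratio 1.58, 1.19 to 2.14), and its ratio there was 1.11 without cycling cells. Cells with Ighd and without any UMI of a switched isotype, called naive here, made up 37.8%, 16.1% and 38.6% in CBMA, compared with 41.7%, 36.9% and 25% in CBMD. Without thinning these were 64.4%, 15.6% and 35.2% in CBMA, next to 69.2%, 32.9% and 38.3% in CBMD, so that both 02m shares then stood above the older ones. At 2000 UMIs the share was 64.3% in CBMA_02m and 34.5% in CBMA_12m, so the order of the ages depends on the depth used. The naive call also leaves out any B cell with a switched UMI, and neutrophils held such UMIs too. Without thinning they were found in 9.69%, 77.5% and 30.2% of CBMA neutrophils, and in 4.77%, 54.1% and 40.5% of CBMD neutrophils, fewest at 02 months. How far this sets the order of the naive shares was not tested. The low naive share of CBMA_12m goes with its share of cells with a switched UMI, given next.

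In thinned cells, switched heavy chains were found in B cells about as often as in cells that do not make antibody. A share at or below that of neutrophils is read as background. At 1000 UMIs a UMI of Ighg1, Ighg2b, Ighg2c, Ighg3, Igha or Ighe was found in 2.22%, 38.7% and 18.6% of B cells of CBMA, in 3.42%, 38.5% and 12.1% of its neutrophils and in 3.61%, 29.5% and 7.59% of its T cells. In CBMA_18m the B-cell share had an interval of 10.3 to 29.7%, which includes the neutrophil share and overlaps the T-cell interval of 4.87 to 11.2%. In CBMD it was found in 0, 18.5% and 18.3% of B cells, 1.44%, 21.8% and 19.2% of neutrophils and 0, 17.5% and 9.41% of T cells. Without thinning, a switched UMI was found in 50.7% of B cells of CBMA_18m (38.6 to 62.8). This lay above its neutrophils (30.2%, 28.8 to 31.7) and its T cells (32.3%, 27.1 to 37.9). Median UMIs there were 4932 in B cells, 3169 in neutrophils and 6266 in T cells. In every other library the unthinned intervals of B and T cells overlapped. A cell was called switched when it held at least 3 such UMIs and more of them than of Ighm and Ighd. This was counted over all UMIs of the cells that held at least 1000. By it, 0 of 45 cells of CBMA_02m (which allows up to 6.67%) and 0 of 24 cells of CBMD_02m (up to 12.5%) qualified. In the other libraries 0.833% to 3.23% of B cells and 1.31% to 18.3% of neutrophils did. Switched UMIs must exceed a B cell's own Ighm, whereas neutrophils make none and can qualify on few stray UMIs. The neutrophil rate is therefore no background for this call. Ighg2b reached 2204 CPM in CBMD_18m, of which 1587 of 1637 UMIs came from 1 cell. Ighm stood at 50000 CPM in CBMA_12m, against 3107 to 5140 CPM in the other 5 libraries, and Igkc at 98586 CPM, against 4621 to 6772 CPM, of which 9471 of 10320 Ighm UMIs and 19076 of 20348 Igkc UMIs came from the cell with 28786 immunoglobulin UMIs. Of the memory genes, Cd80 was at 0, 9.69 and 40.6 CPM in CBMA, next to 0, 30.9 and 31.0 CPM in CBMD. Cd80 is a marker of memory B cells and was under the 10-UMI rule in each comparison with 02m.

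**Figure D3:**
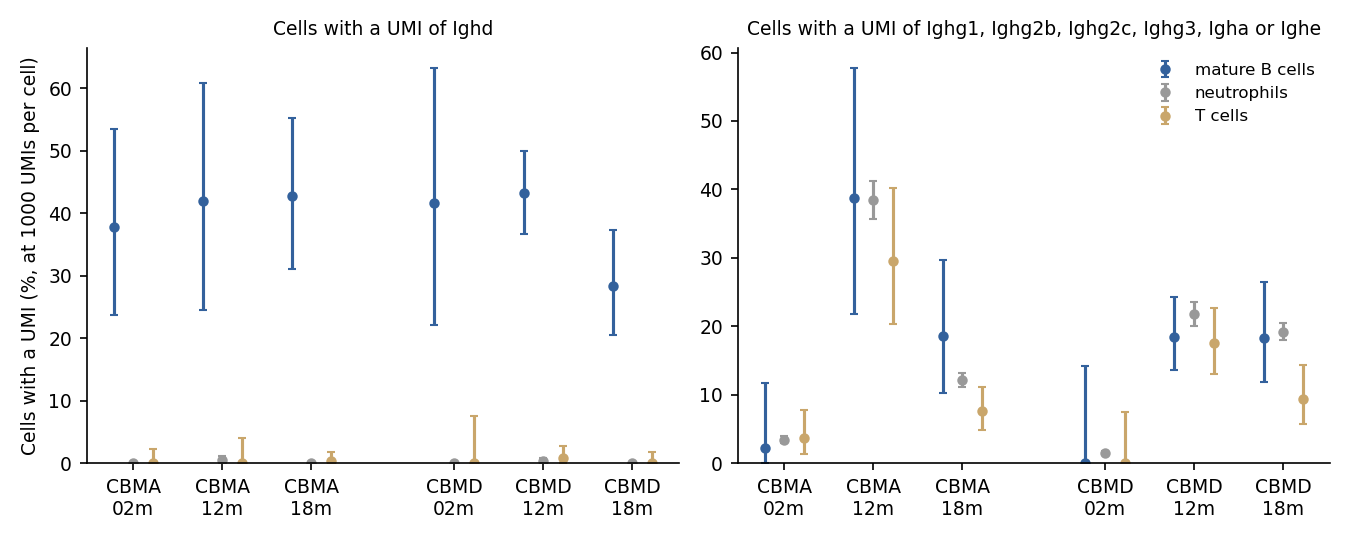
Percent of cells with a UMI of Ighd (left) or of any switched heavy chain (right) at 1000 UMIs per cell, in mature B cells, neutrophils and T cells of the 6 libraries, with exact binomial 95% intervals. Ighd separates B cells from both others, whereas the switched share of B cells is close to that of neutrophils.

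The naive follicular list held more higher than lower members with age, with median log2 ratios at 18 months of 0.44 in CBMA (0.09 over all genes) and 0.47 in CBMD (-0.11 over all genes). Of 13 measured members of the naive list, 4 were higher and 1 lower in CBMA at 18 months, and of 11 in CBMD 4 were higher and none lower. Of all genes 26% were higher in CBMA, so the CBMA count is near the background, and 16% in CBMD. At 12 months 6 of 12 were higher in CBMA (23% of all genes), against 8 of 12 in CBMD (20.3% of all genes), with no member lower. Without cycling cells these counts were 4 higher and 2 lower of 13 and 2 and 1 of 9 at 18 months. At 12 months they were 2 and 1 of 11 and 6 and 0 of 10. No share over all genes was taken under that setting. Ccr7, the chemokine receptor that guides B cells to T-cell zones, was at 42.1, 77.5 and 174 CPM in CBMA, compared with 112, 304 and 292 CPM in CBMD, with 18m ratios of 4.14 (2.13 to 8.99) and 2.60 (1.54 to 4.73). At 1000 UMIs it was found in 6.67%, 19.4% and 18.6% of CBMA and 12.5%, 25.7% and 21.7% of CBMD cells. Fcer2a, the low-affinity IgE receptor CD23 of follicular B cells, was at 143, 218 and 115 CPM in CBMA, next to 52.4, 266 and 125 CPM in CBMD, with a CBMD ratio of 5.08 at 12 months (2.44 to 12.7). Cxcr5, the receptor that leads to follicles, was at 33.7, 24.2 and 90.7 CPM in CBMA, against 7.49, 122 and 120 CPM in CBMD, where the 02m value is 1 UMI and the 18m ratio of 16.0 has an interval of 2.80 to 639. Satb1, a chromatin organiser, was at 75.8, 150 and 227 CPM in CBMA, compared with 135, 441 and 170 CPM in CBMD.

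Zbtb20, a zinc-finger repressor that acts in B-1 and plasma cells among others, was among the genes that differed most between ages in both positions. It was at 37.9, 412 and 637 CPM in CBMA, next to 59.9, 392 and 910 CPM in CBMD. The ratios to 02m were 10.9 at 12 months (5.46 to 24.6) and 16.8 at 18 months (8.73 to 37.2) in CBMA, and 6.55 (3.30 to 15.3) and 15.2 (7.66 to 35.3) in CBMD. Without cycling cells they were 11.8 and 20 in CBMA, against 14.3 and 36.4 in CBMD, and over every alternative tried they ranged from 5.47 to 52.1. At 1000 UMIs Zbtb20 was found in 0, 19.4% and 35.7% of CBMA and 8.33%, 23.4% and 35.0% of CBMD cells. Neutrophils gave 1.56% to 4.49% and T cells 9.04% to 18.2%.

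Apoe, the lipid carrier, was at 96.8, 184 and 1060 CPM in CBMA, compared with 44.9, 371 and 922 CPM in CBMD. Its 18m ratios were 10.9 (7.20 to 17.4) and 20.5 (9.38 to 56.1), and its 12m ratios 1.90 and 8.26. The 18m shares of cells at 1000 UMIs, 40.0% and 34.2%, stood above the 9.67% and 7.88% of neutrophils. In CBMD_02m and CBMA_12m they were 4.17% and 6.45% against 13% and 8.81%, which is background. In CBMA_02m the share was 13.3% against 9.12% of neutrophils. Ahnak, a large scaffold protein, was at 16.8, 262 and 313 CPM in CBMA, next to 30, 138 and 322 CPM in CBMD, with 18m ratios of 18.6 (7.08 to 69.2) and 10.7 (4.14 to 39.7). Cd83, a surface protein of activated B cells that keeps class II on the surface, was at 50.5, 121 and 222 CPM in CBMA, against 22.5, 246 and 250 CPM in CBMD, with 18m ratios of 4.39 (2.40 to 8.81) and 11.1 (3.75 to 54.5). Traf1, a signal adaptor of the TNF receptor family, was at 12.6, 77.5 and 124 CPM in CBMA, compared with 37.4, 117 and 147 CPM in CBMD, with 18m ratios of 9.83 (3.18 to 49.2) and 3.92 (1.63 to 12.3). Nr4a1, the orphan receptor that B-cell receptor signals induce, was at 50.5, 179 and 298 CPM in CBMA, next to 135, 431 and 252 CPM in CBMD.

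**Figure D4:**
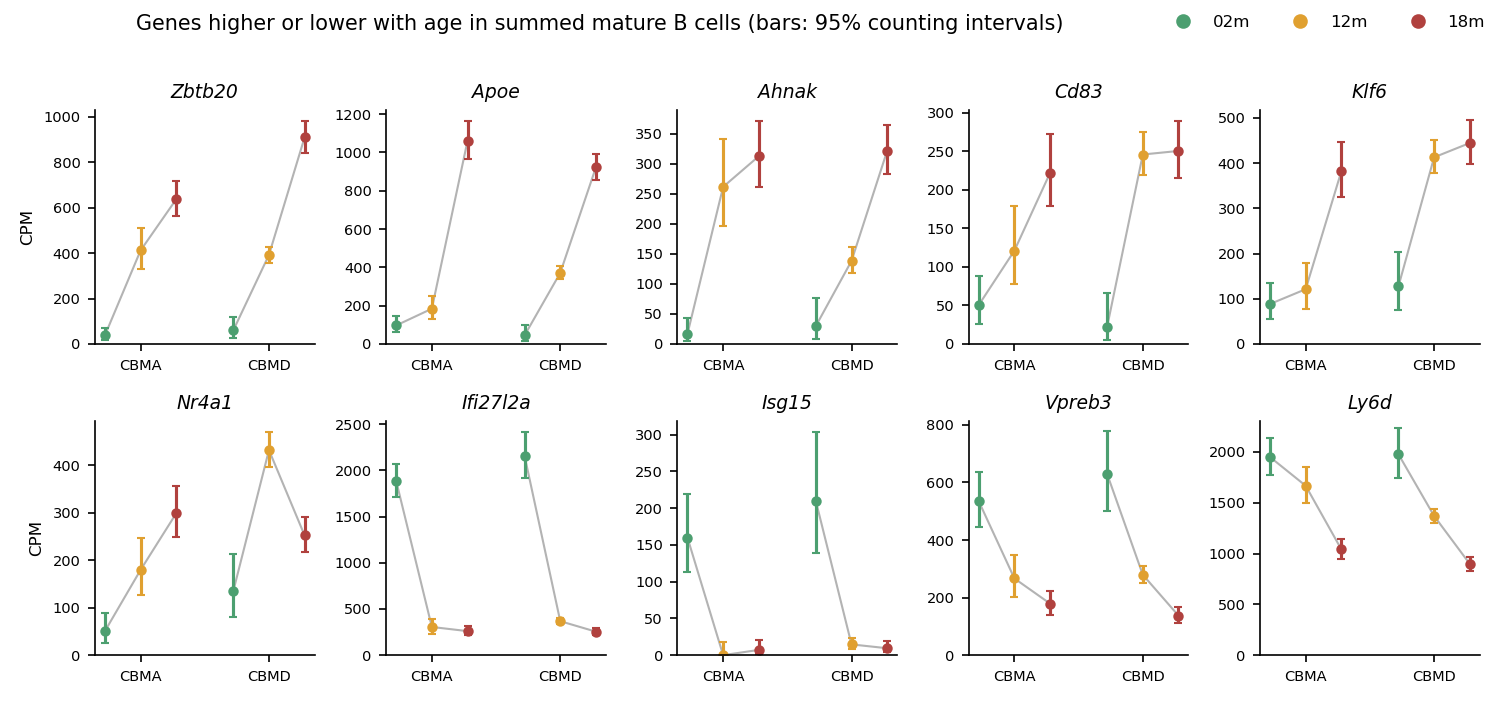
CPM of 10 genes in the summed B cells of the 6 libraries, in order 02m, 12m and 18m for each position, with exact Poisson 95% intervals. Zbtb20, Apoe, Ahnak and Klf6 are highest at 18 months in both positions, whereas Ifi27l2a, Isg15, Vpreb3 and Ly6d are highest at 02 months.

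Lists for activation, homing and immediate early response held more higher than lower members at 18 months, when 26% of all genes were higher and 17.7% lower in CBMA, and 16% higher and 24.7% lower in CBMD. Of the costimulation and activation list 8 of 11 measured members were higher and 1 lower in CBMA at 18 months and 4 of 5 higher in CBMD. Of the homing and adhesion list 9 of 14 were higher and 2 lower in CBMA, against 3 of 7 higher in CBMD. Of the immediate early genes 15 of 27 were higher in CBMA and 15 of 26 higher and 3 lower in CBMD. The median log2 ratios of these lists in CBMA were 0.77, 0.90 and 0.77, and in CBMD 0.90, 0.52 and 0.69, where the medians over all genes were 0.09 and -0.11. Cd69, which holds lymphocytes in tissue, was at 92.6, 58.1 and 220 CPM in CBMA, compared with 120, 234 and 260 CPM in CBMD. S1pr1, which guides exit into blood, was at 58.9, 87.2 and 124 CPM in CBMA, next to 44.9, 132 and 127 CPM in CBMD. Klf6 rose 4.32 times in CBMA, against 3.49 times in CBMD at 18 months, but neutrophils held it in 33.1% to 73.9% of cells at 1000 UMIs, more than the 4.44% to 26.7% of B cells. Nfkb1, a subunit of the NF-kB family, was at 139, 237 and 277 CPM in CBMA, compared with 135, 307 and 326 CPM in CBMD. Gpr183, which positions B cells in follicles, was called higher in CBMA at 18 months, at 146 against 8.42 CPM (ratio 17.3, 4.59 to 146, from 2 UMIs at 02 months). Itgb1, the integrin beta 1 chain, was at 4.21, 77.5 and 141 CPM in CBMA, next to 7.49, 81.4 and 133 CPM in CBMD, with 1 UMI in each 02m library. Among all genes measured in both positions, 177 of 1945 were higher and 186 lower at 18 than at 02 months in both. With both intervals clear of 1 these were 110 and 134.

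Genes listed for age-associated B cells, a population described in old mice, were higher in 5 of 9 measured members in CBMA, against 3 of 7 in CBMD at 18 months, with median log2 ratios of 0.64 and 0.52, beside 26% and 16% of all genes. Without cycling cells the counts were 2 of 6 and 3 of 6, with no share over all genes taken under that setting. The defining transcripts were nearly absent. Tbx21, the transcription factor T-bet, was at 0, 0 and 11.9 CPM in CBMA, compared with 0, 2.44 and 12.1 CPM in CBMD, and Itgax, CD11c, at no more than 9.69 CPM. The B-1 list gave 2 of 3 measured members higher in CBMA, next to 1 of 3 in CBMD, too few to set against those shares. Cd5, which marks B-1a cells, had 3 UMIs in CBMA_18m and 6 in CBMD_12m and none elsewhere, whereas Bhlhe41, a regulator of B-1 cells, was at 4.21, 72.7 and 59.7 CPM in CBMA, against 7.49, 52.9 and 59.2 CPM in CBMD. It stayed under the 10-UMI rule in every comparison with 02m.

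The cells that held Zbtb20 differed from those that lacked it in the 3 libraries with the most such cells. This split was made after the values were seen and is described with no test. Cells with at least 2 Zbtb20 UMIs were 3 of 45, 9 of 32 and 32 of 71 in CBMA and 1 of 26, 77 of 225 and 65 of 120 in CBMD, or 6.67%, 28.1% and 45.1%, and 3.85%, 34.2% and 54.2%. They were compared with the cells without a Zbtb20 UMI in CBMA_18m, CBMD_12m and CBMD_18m, which had 28, 124 and 48 of these. Median UMIs per cell were 5722 against 4623, 5170 against 4399 and 5703 against 4196.5, so the cells with Zbtb20 were deeper. Apoe was at 1863 against 95.6 CPM, 617 against 196 CPM and 1436 against 122 CPM. Ahnak was at 505 against 80.9, 195 against 107 and 444 against 118 CPM, and Itgb1 at 197 against 95.6, 146 against 39.9 and 192 against 38.2 CPM. Fcrl5, an Fc-receptor-like protein of B-1 and marginal zone cells, was at 93.8 against 29.4, 50.7 against 11.2 and 91.6 against 22.9 CPM. The naive genes were mixed. Ighm was higher in the cells with Zbtb20, with ratios of 1.23 in CBMA_18m, 1.26 in CBMD_12m and 1.24 in CBMD_18m. In the same order Klf2 had ratios of 1.56, 0.746 and 1.09. Ccr7 had ratios of 0.447, 0.851 and 0.793, and its intervals in both CBMD libraries included 1. Ighd, Fcer2a and Satb1 were lower in the cells with Zbtb20. Ighd was at 246 against 721, 436 against 701 and 246 against 507 CPM, Fcer2a at 22.3 against 250, 197 against 303 and 87.1 against 156 CPM, and Satb1 at 89.4 against 485, 288 against 548 and 82.6 against 309 CPM. Vpreb3, a chaperone of immunoglobulin chains, was at 17.9 against 346, 183 against 347 and 31.3 against 320 CPM. The class II sum was at 19050 against 17515, 19327 against 17239 and 18174 against 13758 CPM, with ratios of 1.09, 1.12 and 1.32. The switched isotypes were not even over the B cells. They summed to 349 against 103 CPM in CBMA_18m (ratio 3.39, 1.90 to 6.48) and 349 against 211 CPM in CBMD_12m (1.66, 1.31 to 2.09), and in CBMD_18m 1 cell holds most of them. CBMA_12m, with 9 cells against 17, gave the same direction for Apoe (305 against 90.8 CPM), Ighd (98.3 against 757 CPM), Fcer2a (29.5 against 348 CPM) and Satb1 (39.3 against 212 CPM) but the opposite for others. There the class II sum was at 9234 against 22747 CPM (ratio 0.406), the switched sum had a ratio of 0.376, and the intervals for Ahnak (0.791, 0.439 to 1.44) and Itgb1 (0.743, 0.235 to 2.41) included 1. The 9 cells of CBMA_12m include the cell with 48539 UMIs, at a class II level of 3152 CPM. In CBMA_02m, with 3 cells against 39, the class II ratio was 0.515. Of these 3 cells a cycling cell held 19676 UMIs at a class II level of 2236 CPM. The others held 2737 and 3434 UMIs at 33613 and 23588 CPM. The class II ratios of these libraries thus lean on single deep cells.

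**Figure D5:**
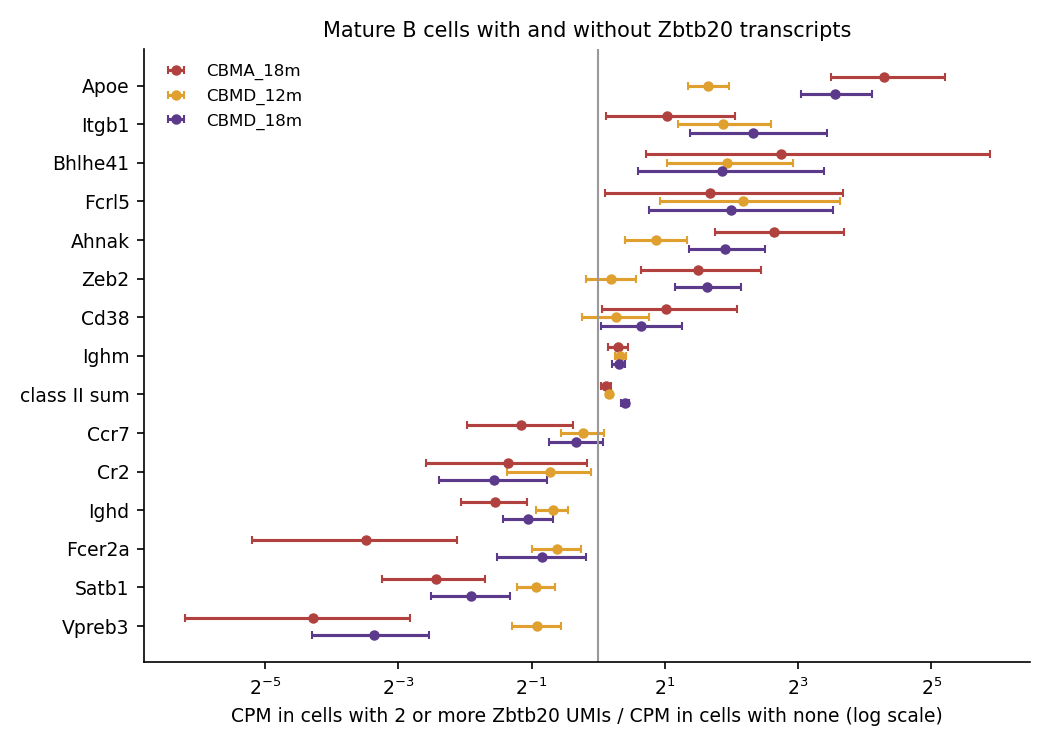
Ratio of CPM in B cells with 2 or more Zbtb20 UMIs to CPM in B cells with none, on a log scale, in 3 libraries with exact 95% counting intervals. Apoe, Itgb1, Bhlhe41 and Fcrl5 lie to the right of 1, and Fcer2a, Satb1 and Vpreb3 to the left, in all 3 libraries.

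Another set of genes was higher in the B cells of young marrow. Vpreb3, which is known for its level in immature B cells, was at 535, 266 and 179 CPM in CBMA, compared with 629, 279 and 137 CPM in CBMD. Its ratios to 02m were 0.498 at 12 and 0.335 at 18 months in CBMA, next to 0.444 and 0.218 in CBMD, and at 1000 UMIs it was found in 26.7%, 25.8% and 7.14% of CBMA cells and 41.7%, 22.5% and 7.50% of CBMD cells, against at most 0.534% of neutrophils. Ly6d, a surface protein that appears at commitment to the B lineage, was at 1949, 1667 and 1041 CPM in CBMA, against 1977, 1370 and 898 CPM in CBMD. It was lower at 18 months in both, with ratios of 0.534 and 0.454. Tnfrsf13c, the BAFF receptor that peripheral B cells need to survive, was at 421, 237 and 224 CPM in CBMA, compared with 412, 201 and 229 CPM in CBMD, 0.533 and 0.556 times the 02m level at 18 months. Without cycling cells the 18m ratios were 0.226 and 0.125 for Vpreb3, 0.529 and 0.464 for Ly6d and 0.500 and 0.408 for Tnfrsf13c. Gadd45g, a stress-response gene, was at 227, 53.3 and 38.2 CPM in CBMA, next to 202, 44.0 and 32.3 CPM in CBMD, and Rbm3, a cold-induced RNA-binding protein, at 964, 523 and 294 CPM and 996, 461 and 314 CPM. The cell-cycle list had 8 of 19 measured members lower and 2 higher in CBMA, against 14 of 15 lower in CBMD at 18 months, beside 17.7% and 24.7% of all genes lower. It moved with the cycling cells, with median log2 ratios of -0.52 and -1.37. Mki67 was at 253, 24.2 and 169 CPM in CBMA, compared with 449, 51.3 and 182 CPM in CBMD.

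Interferon-stimulated transcripts were highest at 02 months. The list summed to 6807, 3765 and 2988 CPM in CBMA, next to 5640, 3076 and 2916 CPM in CBMD, and 20 of 25 measured members were lower at 18 months in CBMA with a median log2 ratio of -2.26. Of all genes 17.7% were lower there. In CBMD 3 of 8 were lower and 1 higher, with a median of -0.57, not far from the 24.7% of all genes that were lower. Ifi27l2a, an interferon-induced mitochondrial protein gene, was at 1886, 305 and 260 CPM in CBMA, against 2157, 368 and 254 CPM in CBMD. At 1000 UMIs its share of B cells was 57.8%, 22.6% and 17.1% in CBMA, compared with 58.3%, 18.5% and 15.0% in CBMD, and that of neutrophils 75.4%, 14.0% and 15.6% and 85.0%, 18.5% and 10.9%. Neutrophils and T cells (69.3% and 48.9% at 02 months) moved with the B cells, and the part of free RNA in the B-cell value was not tested. Isg15, a ubiquitin-like protein, was at 160, 0 and 7.16 CPM in CBMA, next to 210, 14.7 and 9.42 CPM in CBMD, where 27 of the 28 UMIs of CBMD_02m came from 1 cell and the 18m ratio without the top cell of each library was 1.08. Ifit3, which binds viral RNA with its partners, was at 185, 0 and 2.39 CPM in CBMA, against 82.4, 0.814 and 1.35 CPM in CBMD. The 200 bases before the starts of Isg15 (chr4:156200819-156201018, minus strand) and Ifit3 (chr19:34583329-34583528, plus strand) are shown because both hold matches to the interferon-stimulated response element, searched on both strands. Capitals mark the matches, 3 overlapping in Isg15 and 2 on the other strand in Ifit3.
Isg15: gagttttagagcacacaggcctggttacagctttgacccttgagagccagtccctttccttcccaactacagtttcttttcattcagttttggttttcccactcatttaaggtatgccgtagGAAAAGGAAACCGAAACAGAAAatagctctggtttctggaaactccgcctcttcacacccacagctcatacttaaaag
Ifit3: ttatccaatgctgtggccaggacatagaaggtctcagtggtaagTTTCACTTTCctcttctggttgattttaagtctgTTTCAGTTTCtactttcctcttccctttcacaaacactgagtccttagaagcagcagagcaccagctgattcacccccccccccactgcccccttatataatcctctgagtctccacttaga
This element was found in 3.44% of all promoter windows of 300 bases and in 22 of the 30 listed interferon-stimulated genes that have one.

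Between 12 and 18 months the directions were mixed. At 18 against 12 months 17.5% of measured genes were higher and 12.4% lower in CBMA, and 8.7% higher and 16.1% lower in CBMD, and 53 genes were higher and 74 lower in both positions. The CBMA balance of 525 higher and 370 lower genes turned to 216 and 518 without the cell with the most immunoglobulin UMIs of each library, and to 285 and 594 on a total without immunoglobulin genes. Gm42418, a locus that overlaps ribosomal RNA sequence, took up 86965, 11144 and 105663 CPM of the B cells of CBMA and 47837, 14998 and 120584 CPM in CBMD, lowest in both 12m libraries. The mitochondrial ribosomal RNA mt-Rnr2 was at 15816, 5896 and 17737 CPM in CBMA, compared with 20612, 7524 and 21684 CPM in CBMD. Each of these 2 separates the 12m libraries, which also hold the Xist cells, from the others.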

How the data were processed

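Each of the 6 libraries, 1 per age and position from pooled mice, was prepared with the 10x Genomics 3′ v3 kit and sequenced on an Illumina instrument. The authors aligned reads and counted UMIs with Cell Ranger (5.0.1 in the file header) on GRCm38 and deposited filtered matrices of raw UMI counts for 55450 genes and 43420 cell barcodes. The annotation release of the authors is not given in the sources used here. Members and gene lists were chosen with earlier results of these data known. Libraries held 2718 to 8580 quality-controlled cells with a median of 2806 to 3930.5 UMIs. UMIs of the selected cells were summed per library and scaled to CPM. Ratios carry exact conditional binomial intervals, levels exact Poisson intervals and shares Clopper-Pearson intervals, all at 95% and for counting error only. The limit given for a count of 0 is 3 counts of the total. With 1 library per group no p-value was computed. A gene needed an expected 10 UMIs in the smaller library and a ratio past 1.5-fold to be called, and the 5 genes of the selection were left out of counts. Named genes were the 4 markers, members of the class II, naive, switched and memory lists, 2 to 4 members of each other list by UMIs or ratio, and up to 10 genes in each direction that passed 1.5-fold in both positions with intervals clear of 1. Shares of cells with a transcript were taken after thinning each cell to 1000 UMIs, beside neutrophils and T cells. Doublets scored by Scrublet were kept, and the highest scores left out in an alternative. One listed symbol (Cd43) matched no gene. The scripts were tested on simulated data, in which 10.8% to 20.7% of measured genes left unchanged passed 1.5-fold. Coordinates came from GENCODE vM21, which matched all 7450 measured genes, and sequences from RefSeq on GRCm38.p6. Analyses ran in Python 3.11.15 with scanpy 1.11.5 for Scrublet, scipy 1.17.1 for intervals, pandas 2.3.3 and numpy 2.4.6 for tables, and figures were drawn with matplotlib 3.10.9. Some genes that the rule names are not reported here.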

Additional observations from a re-analysis of the deposited data

Results flagged for a closer look

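Ratios that went past 1.5-fold in opposite directions in the 2 positions, with both counting intervals clear of 1, are listed here by gene and ages, and none of these differences between positions was tested across libraries. The value given is the CBMA ratio divided by the CBMD ratio. At 18 against 02 months it was 0.328 for H2-Oa (0.617 in CBMA and 1.88 in CBMD) and 8.94 for Cenpa, a centromere protein of dividing cells (3.78 and 0.423). At 12 against 02 months it was 0.268 for H2-Oa (0.485 and 1.81), 48.3 for Lgals1, a galectin (20.7 and 0.429), and 0.365 for S100a6, a calcium-binding protein (0.632 and 1.73).

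At 18 against 12 months it was 0.194 for Lgals1 (0.534 and 2.76), 92.2 for the chemokine Ccl4 (11.0 and 0.119), 2.85 for Nr4a1 (1.66 and 0.584), 16.0 for the heat-shock gene Hspa1b (7.23 and 0.452) and 3.38 for Dennd4a (2.00 and 0.594). The neutrophil granule genes Lcn2, Ngp and Camp gave 10.1 (3.07 and 0.304), 34.4 (2.17 and 0.0629) and 79.4 (3.50 and 0.0441). Without the top cell of each library the ratios were 1.48 and 0.0663 for Ccl4, 0.160 and 0.0446 for Ngp, and 0.0943 and 0.0598 for Camp, so that the CBMA ratios of both granule genes turned.

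Outside the limits of quality control, 5 barcodes of CBMD_12m met the B-cell selection, of which 4 held more than 5000 genes.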

How the results depend on the processing

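With 1 library per group and at most 225 B cells in one, few cells and few UMIs stand behind many ratios, and single deep cells can set a gene's level. No paired analysis was possible because each group has 1 library, although both positions of an age may share animals. Leaving out cycling cells, the cell with the most immunoglobulin UMIs or the top cell of each gene, and lifting the upper limit on genes, were chosen after seeing the data. Of 5598 gene ratios under an alternative, 5107 moved by less than their counting interval and 473 moved further. The other 18, which had been past 1.5-fold with an interval clear of 1, changed direction. Ratios that were nearer 1 or had an interval holding 1 were not counted as changes of direction when they crossed 1.

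The shares of mature B cells were 0.223%, 0.576% and 0.251% in CBMA, next to 0.128%, 2.23% and 0.549% in CBMD when all cells were thinned to 1000 UMIs before selection, and 68.2%, 59.3%, 51.8%, 68.4%, 64.8% and 55.3% as shares of cells with 2 or more Cd79a UMIs. Thinned, CBMA_18m was closer to CBMA_02m than without thinning. Without cells holding transcripts of other lineages CBMA_12m gave 0.552% and CBMD_12m 4.28%, and CBMD_12m gave 3.97% with 3 Cd79a and 2 Ms4a1 UMIs, 4.41% without cells with Rag1, Rag2, Dntt or Cd93 and 3.68% without Xist cells. In all, 39 of 56 shares stayed within their interval.

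The class II ratio of CBMA at 18 against 02 months was 1.28 with the stricter Cd79a and Ms4a1 minimum, 1.13 without the highest Scrublet scores, 1.26 without cells of other lineages, 1.08 without cells with Rag1, Rag2, Dntt or Cd93, 1.06 without cycling cells, 1.09 with size factors and 1.07 as a mean over cells. At 12 against 02 months in CBMA the same settings gave 1.20, 1.04, 1.51, 0.960, 0.872 and 1.05 (no mean over cells beyond the interval), Jchain under 5 gave 1.38, no Xist cells 1.42, no top immunoglobulin cell 1.28 and a total without immunoglobulin genes 1.29. At 18 against 12 months in CBMA it was 1.09 as reported and 0.870 with Jchain under 5, 0.835 without other lineages, 0.850 without Xist cells, 0.900 without the top immunoglobulin cell, 1.21 without cycling cells, 0.933 on the total without immunoglobulin genes, 1.15 without top cells and 1.00 as a mean over cells. In CBMD at 18 against 02 months it was 1.56 without other lineages, 1.34 without the top immunoglobulin cell, 1.5 with size factors, 1.62 without top cells and 1.56 over cells. At 12 against 02 months there it was 1.66 without the highest Scrublet scores, 1.79 without other lineages, 1.43 without the top immunoglobulin cell, 1.43 without cycling cells, 1.79 without top cells and 1.69 over cells. At 18 against 12 months there it was 0.921 as reported, 0.882 without the highest Scrublet scores, 0.869 without other lineages, 0.897 without Xist cells, 0.952 without cycling cells and 0.981 with size factors. The cause was not tested.

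Genes called were 1481, 1296 and 895 in CBMA (18 against 02, 12 against 02, 18 against 12 months) and 800, 833 and 1845 in CBMD. These counts include genes whose interval held 1. At 18 against 02 months 494 higher and 382 lower genes of CBMA had intervals clear of 1, and 211 and 351 of CBMD. With at least 25 expected UMIs the genes called were 487, 387, 204, 237, 225 and 737, and with no filter 9654, 8913, 8851, 10729, 12740 and 10235. Without cycling cells 974 were called in CBMA, against 366 in CBMD at 18 against 02 months, and 276 in CBMD at 12 against 02 months. Without cells of other lineages 390 were called in CBMA at 12 against 02 and 254 at 18 against 12 months, and without Xist cells 483 and 344. These alternatives also hold fewer UMIs, so fewer genes were measured. Size factors moved the median log2 ratio of CBMA by -0.14, -0.08 and -0.06 and that of CBMD by 0.08, -0.01 and 0.09, and the share of higher among called genes from 59.4% to 44.2% in CBMA at 18 against 02 months and from 35.1% to 47.7% in CBMD at 18 against 12 months. A total without immunoglobulin genes moved it from 51.5% to 71.8% in CBMA at 12 against 02 months and from 58.7% to 32.4% at 18 against 12 months.

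The naive share was 64.4% in CBMA_02m, 69.2% in CBMD_02m and 38.3% in CBMD_18m without thinning, 64.3%, 34.5% and 35.6% in CBMA_02m, CBMA_12m and CBMD_18m at 2000 UMIs, 35.7% in CBMA_12m without other lineages and 29.0% in CBMD_12m without Xist cells. The switched share was 0 in CBMA_12m without Xist cells, in CBMA_18m without other lineages and in CBMD_18m with Jchain under 5. The summed naive list of CBMA at 18 against 12 months turned from 0.145 to 1.11 without top cells. The switched list of CBMD at 18 against 12 months turned from 8.57 to 0.732 with the stricter minimum and with Jchain under 5, 0.692 without Rag1, Rag2, Dntt or Cd93 cells, 0.717 with under 10% mitochondrial UMIs, 0.738 without the top immunoglobulin cell and 0.808 without top cells.

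Single genes whose ratio had been past 1.5-fold with an interval clear of 1 turned as follows. Without cells of other lineages Ifi30 was 1.10 in CBMA at 12 against 02 months, Isg15 1.34 in CBMD at 12 against 02 months, Ube2c 1.03 in CBMD at 18 against 02 months, and Ngp 0.550 and 0.185 in CBMA at 18 against 02 and 18 against 12 months. Ngp was also 0.470 and 0.174 without the highest Scrublet scores, 0.573 and 0.190 without cycling cells and 0.722 and 0.203 without top cells. Isg15 was 1.08 in CBMD at 18 against 02 months without top cells, and 1.10 without cycling cells and 1.63 without top cells at 12 against 02 months. Ighm in CBMA at 18 against 12 months was 1.03 without Xist cells and 1.10 without top cells. Ube2c in CBMD at 18 against 12 months was 0.803 without Rag1, Rag2, Dntt or Cd93 cells, and Zeb2 in CBMA at 12 against 02 months 0.990 without Xist cells.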

Other observations

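Among the 519 cells, the share with mainly lambda light chains was highest in CBMD_02m. Cells in which lambda UMIs outnumbered kappa UMIs made up 15.6%, 18.8% and 8.57% of B cells in CBMA at 02, 12 and 18 months and 46.2%, 15.8% and 9.17% in CBMD. The CBMD_02m share came from 12 cells, with an interval of 26.6 to 66.6%. It overlapped the intervals of CBMA_02m (6.49 to 29.5%) and CBMA_12m (7.21 to 36.4%). The CBMA intervals overlapped each other. Iglc1, a lambda constant region, was at 745, 567 and 427 CPM in CBMA, next to 1992, 558 and 584 CPM in CBMD. Lambda constant genes are near-identical copies, so reads could be split between them.

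Heat-shock genes gave 7 of 10 measured members higher in CBMA, against 4 of 9 in CBMD at 18 against 02 months, beside 26% and 16% of all genes, and Hspa1a was at 4.21, 9.69 and 76.4 CPM in CBMA, compared with 15.0, 260 and 160 CPM in CBMD. Of the class I presentation list 1 of 10 measured members was higher and 1 lower in CBMA, where 26% and 17.7% of all genes were, and none was higher and 1 of 9 lower in CBMD, where 16% and 24.7% were. B2m, the light chain of class I, was at 1670 to 2054 CPM. Macrophage genes C1qa, C1qb and C1qc were at 0 to 4.85 CPM in the B cells, and Lyz2, which neutrophils and monocytes share, at 225 to 1170 CPM.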
